A study of Mus musculus with 12 samples.

Results

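The TGFβ response of inhibitor-treated cells was the difference between libraries of im-TEC given TGFβ together with an inhibitor of nicotinamide N-methyltransferase (NNMT) and libraries given the inhibitor without TGFβ. The libraries were chosen by their labels, 3 per group and 6 of the 12 in the series, and every expressed gene was tested, which left 13581 of 55487. im-TEC is a mouse line of kidney tubular epithelial cells immortalised by a temperature-sensitive SV40 large T antigen. All cells had been expanded with interferon gamma at a permissive temperature and then grown without it at a restrictive temperature before seeding. The groups were TGFβ at 10 ng/mL with 5-amino-1-methylquinolinium at 50 µM, the inhibitor at 50 µM alone, TGFβ at 10 ng/mL alone and untreated control, each for 48 h. The last pair, which shares no library with the first, was used to ask whether the response differed with the inhibitor. The labels do not say whether a group's libraries are separate cultures. P-values therefore cover the spread between these libraries, estimated over all 4 groups together, which may be technical, and all cells are 1 line.

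TGFβ is a secreted growth factor that brings together type I and type II receptor kinases, which phosphorylate SMAD2 and SMAD3. With SMAD4 these enter the nucleus and switch on genes of matrix, cytoskeleton and the pathway's own inhibitors, and in tubular cells TGFβ is known for loss of epithelial traits and for scarring. NNMT methylates nicotinamide with S-adenosylmethionine, so the enzyme draws on both an NAD precursor and the methyl donor. Results are ordered from the pathway's own genes to its targets and then to the cell functions that moved with them.

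Counts in genes ranged from 7838352 to 9257735 per library with TGFβ and the inhibitor and from 8412804 to 9289150 with the inhibitor alone, so 3 counts in a library stood for 0.328 to 0.396 CPM (counts relative to a TMM-scaled library size). The shallowest library of the series, with 2584117 counts, and the widest spread both belonged to TGFβ alone. Its biological coefficient of variation stood at 0.228, and the other groups had 0.112 with TGFβ and the inhibitor, 0.0885 with the inhibitor and 0.0657 in controls. Transcripts of mitochondrial protein genes made up 4.70 ± 0.606% of gene counts with TGFβ and the inhibitor and 6.43 ± 0.872% with the inhibitor alone (SD, n = 3 each, two-sided exact permutation p 0.1, the smallest that 3 against 3 allows). Reads outside annotated genes were 22.1 ± 0.912% and 25.7 ± 1.41% of all counts in those groups, and the nuclear RNA *Malat1* was 2.44 ± 0.168% and 3.43 ± 0.146% of gene counts. The part of these differences in the results below was not tested.

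The line carried kidney markers but lacked many of differentiated epithelium. The nephron transcription factor *Pax8* stood at 142 ± 6.35 CPM with TGFβ and the inhibitor and 249.8 ± 2.90 CPM with the inhibitor alone, and kidney cadherin *Cdh16* at 71.6 ± 3.56 and 260.5 ± 12.6 CPM. The epithelial cadherin *Cdh1* had 1 count over the 3 libraries with TGFβ and the inhibitor and 3 with the inhibitor alone, and *Epcam*, *Vil1*, *Umod* and *Slc34a1* had 0 in all 6. Of 43 proximal tubule genes looked for, 21 had no count in the 6 libraries. Among markers of other cells, 10 of 20 fibroblast genes were at 0, *Pdgfra*, *Col3a1*, *Lum* and *Thy1* included, as were 17 of 23 immune, 8 of 18 endothelial and 5 of 20 podocyte genes, with *Nphs1* among the last. The fibroblast genes with the most counts over the 6 libraries were *Nt5e* (5370) and *Col1a1* (1065). Those of the immune list were *Csf1r* (2201) and *Cd14* (490), and *Egfl7* (173) and *Actn4* (39550) led the endothelial and podocyte lists. The summed fibroblast list spanned 201 to 239 CPM with TGFβ and the inhibitor and 112 to 114 CPM with the inhibitor alone, and without the 2 type I collagen genes 164 to 193 and 109 to 110.3 CPM. Summed immune markers spanned 33.3 to 38.7 CPM and 71.7 to 84.0 CPM, podocyte markers 1909 to 2132 and 1279 to 1397 CPM, and endothelial markers 4.75 to 6.34 and 5.17 to 8.08 CPM in the same order of groups. The part of these markers in the results was not tested.

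TGFβ changed many of the expressed genes of inhibitor-treated cells. In 1 edgeR quasi-likelihood model of the 4 groups, 4933 genes (36.3%) had an adjusted p below 0.05, of which 2448 (18%) were higher and 2485 (18.3%) lower with TGFβ. At least 2-fold changes made up 5.82% higher and 8.13% lower. The model took its spread from all 12 libraries, the wider group of TGFβ alone included. With only the 2 groups compared, 5787 of 12807 genes were called. The balance of calls moves with the scaling and the filter, with 2196 higher and 2747 lower on library size alone and 2140 and 1772 among genes with a mean of 10 CPM or more. Counts over gene lists below are to be read against 18% called higher and 18.3% called lower of all tested genes. The lists were chosen with earlier results of these data known, so these counts describe the lists and test nothing. The 3 values with TGFβ all lay above the 3 without it in 26% of genes and all below in 26.1%. The median log2 fold change over all tested genes was -0.0025, so shifts given below are close to shifts relative to the median gene. In these bulk libraries, fewer cells with a transcript and less of it per cell cannot be told apart.

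**Figure D1:**
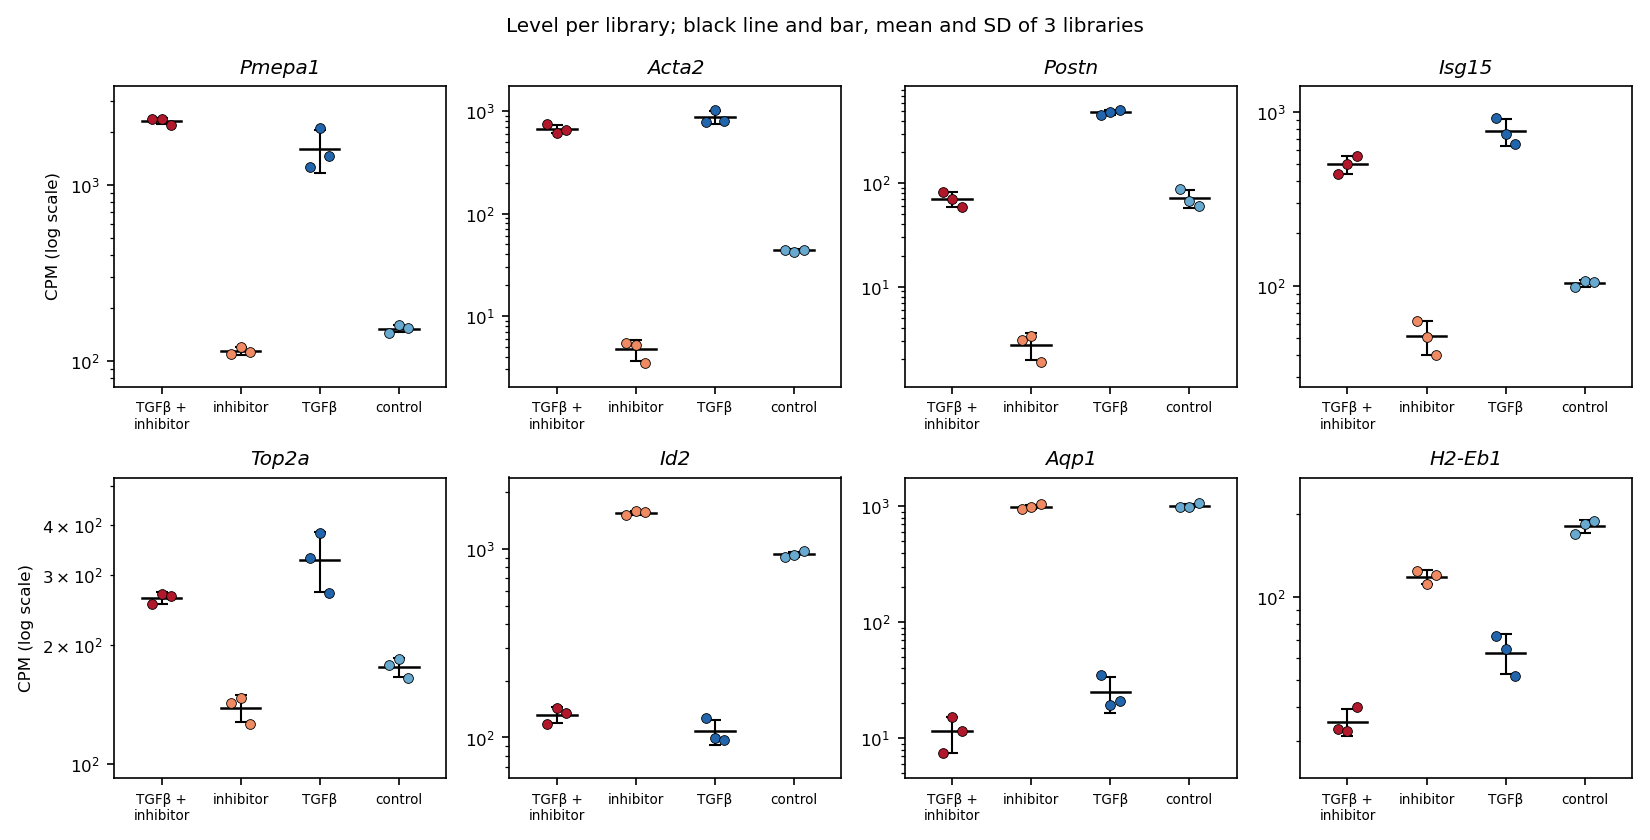
CPM on a log axis for 8 genes in each of the 12 libraries (points), with the mean and SD of 3 libraries per group in black. Pmepa1, Acta2, Postn, Isg15 and Top2a lay higher and Id2, Aqp1 and H2-Eb1 lower with TGFβ and the inhibitor than with the inhibitor alone, with no overlap between the 3 libraries of these groups.

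Classic readouts of TGFβ rose. *Acta2*, smooth muscle actin, read 747, 619 and 658 CPM with TGFβ and the inhibitor, against 5.39, 5.21 and 3.49 CPM with the inhibitor alone. All 3 libraries with TGFβ lay above the others, a log2 fold change of 7.16 ± 0.17 (SE, adjusted p 1.62e-15). *Ccn2*, a matricellular growth factor, read 6730, 3132 and 6384 CPM against 245, 252 and 188 CPM, and replicate 2 with TGFβ was the lowest of its group yet far above every library without it (4.57 ± 0.59, adjusted p 0.000315). *Fn1*, fibronectin, stood higher without TGFβ and rose less, with 1117, 1088 and 1101 CPM against 283, 291 and 276 CPM (1.96 ± 0.11, adjusted p 1.49e-10).

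*Nnmt* itself, whose product the inhibitor blocks, differed by less than 2-fold. It read 26.9, 27.2 and 23.6 CPM with TGFβ and the inhibitor, against 15.3, 20.0 and 22.2 CPM with the inhibitor alone. The libraries did not overlap, and the log2 difference of 0.44 ± 0.16 just passed the test (adjusted p 0.0396). The call was lost without inhibitor replicate 1 or 2 (adjusted p 0.192 and 0.073) or without replicate 1 or 2 of TGFβ with the inhibitor (0.105 and 0.103), without scaling beyond library size (0.0703) and at thinned depth (0.294). *Inmt*, a related methyltransferase that acts on indoleamines, had 0 counts in the 3 libraries with TGFβ and the inhibitor, against 405 with the inhibitor alone. Set against a floor of 3 counts over the group, it was at least 127-fold lower with TGFβ.

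Within the pathway, members of every role changed in both directions. Of 17 tested ligands and latency proteins, 8 rose and 5 fell (76.5% called), with a median log2 change of 0.53. *Inhba*, which encodes the subunit of activin A, read 167, 186 and 154 CPM with TGFβ and the inhibitor, against 17.0, 15.3 and 19.0 CPM with the inhibitor alone, without overlap (3.31 ± 0.14, adjusted p 2.82e-12). *Ltbp1*, which stores latent TGFβ in the matrix, averaged 37.0 ± 4.01 CPM against 3.11 ± 1.16 CPM (3.56 ± 0.27, adjusted p 3.43e-08). *Fstl1*, a secreted follistatin-like protein, rose 9.68-fold, and *Itgb6*, a subunit of an integrin that frees latent TGFβ, fell 5.50-fold (adjusted p 7.58e-12 and 4.65e-05). *Itgb6* fell by 3.11 on the log2 scale without replicate 3 of TGFβ with the inhibitor, against 2.46 with it. *Tgfb1* was not called, at 11.7 ± 2.37 CPM and 8.11 ± 1.40 CPM (adjusted p 0.315).

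Of 16 receptors and SMADs, 3 rose and 6 fell (56.2% called, where 36.3% of all tested genes were), and 2 rose and 4 fell at thinned depth. The type I receptor gene *Acvr1* rose 4.59-fold (adjusted p 4.53e-07). The co-receptor *Tgfbr3*, betaglycan, fell 5.08-fold to 18.8 ± 2.56 CPM, against 95.5 ± 3.24 CPM with the inhibitor alone (adjusted p 3.34e-10), and *Smad9*, of the BMP branch, fell 6.33-fold (adjusted p 2.11e-08). Inhibitors of the pathway were induced in part, with 7 of 15 higher and 2 lower. *Pmepa1*, which sequesters SMAD2 and SMAD3, read 2364, 2360 and 2196 CPM with TGFβ and the inhibitor, against 110.2, 121 and 112 CPM with the inhibitor alone, without overlap (4.33 ± 0.15, adjusted p 4.34e-13). *Skil*, a SMAD co-repressor, rose 3.35-fold and *Smad7*, the inhibitory SMAD, 1.49-fold (adjusted p 7.91e-10 and 0.00042), whereas *Smad6* fell 2.00-fold and *Nedd4l*, a ubiquitin ligase, 3.01-fold (adjusted p 7.21e-05 and 3.53e-10).

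BMP is the sister branch that acts through other SMADs, and the ID genes are among its targets. Of 12 tested BMP and ID genes, 7 were lower and 3 higher, where 18.3% and 18% of all tested genes were, with a median of -1.13. *Id2*, an inhibitor of basic helix-loop-helix factors, read 117, 143 and 135 CPM with TGFβ and the inhibitor, against 1508, 1592 and 1562 CPM with the inhibitor alone, without overlap (-3.56 ± 0.12, adjusted p 1.26e-13). *Id4* averaged 2.61 ± 0.858 CPM against 127 ± 6.03 CPM (-5.60 ± 0.19, adjusted p 1.88e-13). *Id1* was 2.55-fold and *Id3* 2.59-fold lower (adjusted p 3.07e-09 and 0.000665), and *Chrdl1*, a secreted BMP antagonist, fell 14.6-fold (adjusted p 9.48e-09).

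Of 29 listed SMAD targets, 19 rose and 2 fell, a median of 0.96, where 18% and 18.3% of all tested genes did. *Pdgfb*, a growth factor for mesenchymal cells, rose 7.84-fold to 576 ± 124 CPM, against 73.5 ± 4.24 CPM with the inhibitor alone (adjusted p 2.08e-08). *Nox4*, an oxidase that makes hydrogen peroxide, read 28.1, 26.2 and 27.1 CPM against 4.84, 4.38 and 5.02 CPM, without overlap (2.51 ± 0.22, adjusted p 2.89e-08). *Sphk1*, a kinase of sphingosine, rose 4.01-fold and *Ptgs2*, a prostaglandin synthase, 4.83-fold (adjusted p 4.63e-06 and 0.000815). The 5 letters CAGAC, a SMAD-binding word, were sought on either strand of the promoters in the RefSeq table. These are windows of 300 bases from 250 before to 50 after the gene's start. A gene was counted if any of its promoters held the letters. They were found in 6 of 11 higher targets that have a promoter in the table (54.5%) and in 52.0% of all tested genes that do.

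**Figure D2:**
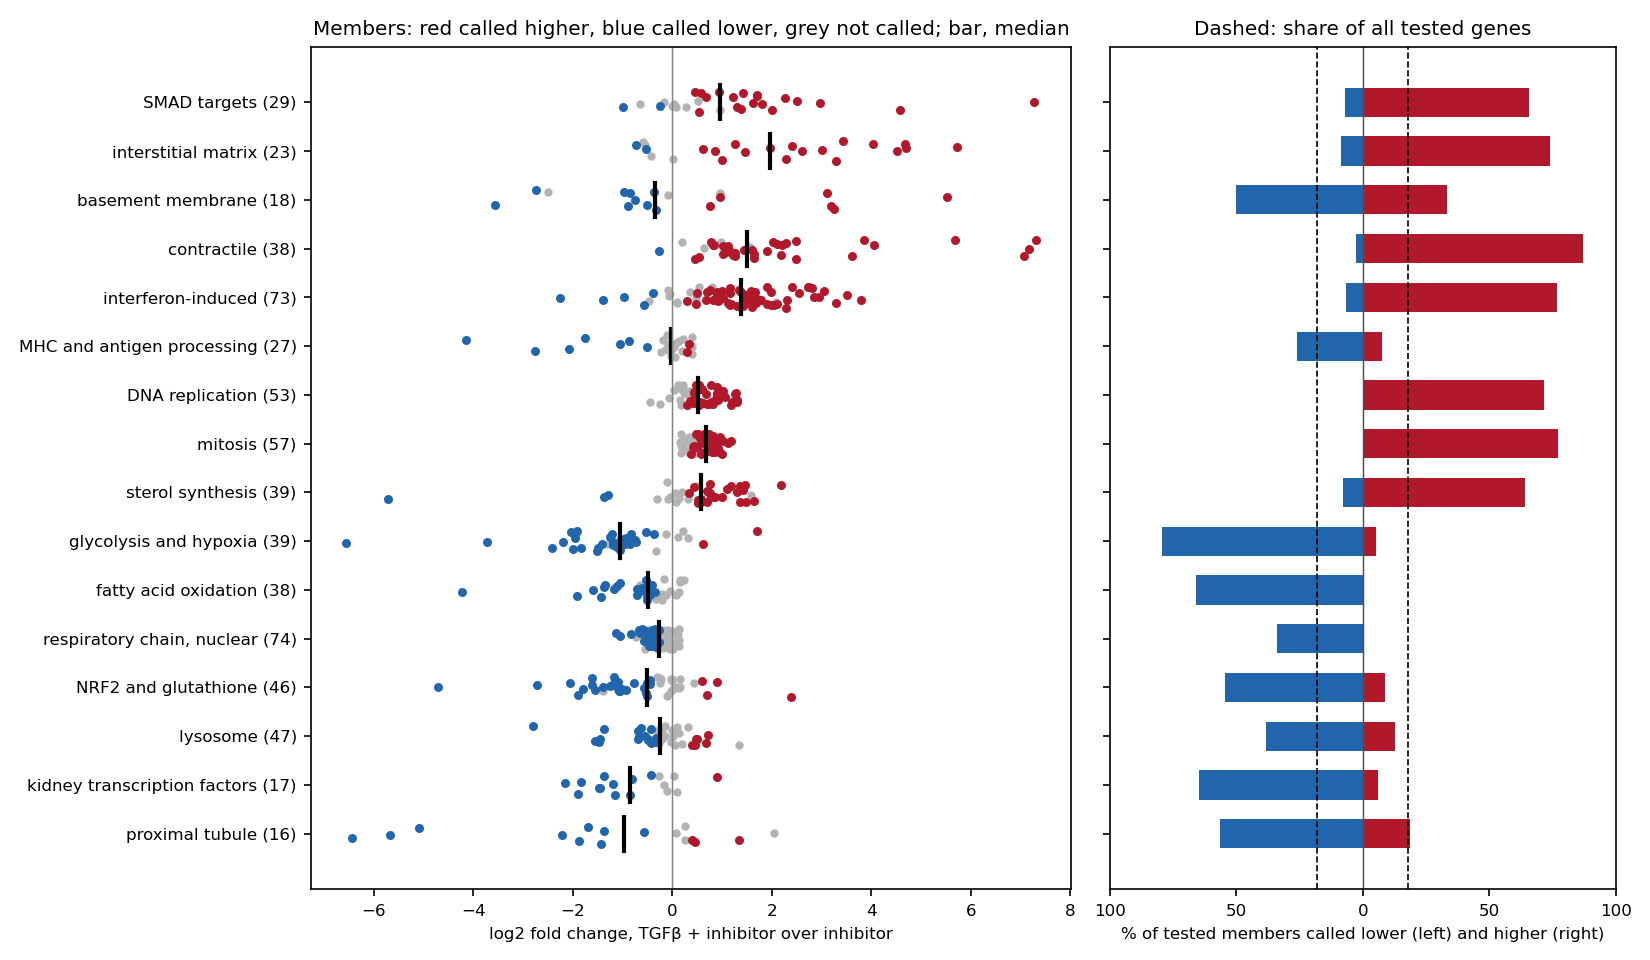
Left, log2 fold change of TGFβ with inhibitor over inhibitor for the tested members (number in brackets) of 16 gene lists, with called members in colour and the median as a black bar. Right, the percentage of members called higher and lower, with dashed lines at the 18% and 18.3% of all tested genes. Contractile, interferon-induced and mitosis lists lie to the right and the glycolysis and hypoxia list to the left.

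Many genes of the interstitial matrix rose, while those of the basement membrane changed both ways. Of 23 interstitial genes, 17 were higher and 2 lower, with a median of 1.96. *Postn*, periostin, read 83.0, 70.2 and 58.6 CPM with TGFβ and the inhibitor, against 3.08, 3.31 and 1.86 CPM with the inhibitor alone, without overlap (4.68 ± 0.20, adjusted p 4.84e-12). *Col1a1*, a chain of type I collagen, read 45.1, 37.0 and 33.1 CPM against 2.20, 5.20 and 3.39 CPM, without overlap (3.42 ± 0.25, adjusted p 2.22e-08). Its partner *Col1a2* had 29 counts over 3 libraries against 1, a ratio of 30.8 (exact 95% counting interval 5.11 to 1259), and that 1 count lay in inhibitor replicate 1. *Fbln2*, fibulin, rose 16.4-fold to 261 ± 23.8 CPM, against 15.9 ± 2.16 CPM (adjusted p 6.39e-10).

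Of 18 basement membrane genes, 6 rose and 9 fell. The collagen IV chains *Col4a3* and *Col4a4*, which lie side by side and share a network, rose 9.09-fold and 9.44-fold (adjusted p 2.98e-06 and 4.12e-11). The ubiquitous chain *Col4a1* fell to 2.74 ± 0.499 CPM, against 5.07 ± 0.799 CPM with the inhibitor alone (-0.89 ± 0.28, adjusted p 0.0188), a call lost when 1 of 4 libraries was left out (adjusted p up to 0.0701) and at thinned depth (0.409). *Lamb3*, a laminin chain, averaged 21.3 ± 1.98 CPM against 0.441 ± 0.323 CPM (5.53 ± 0.44, adjusted p 5.5e-08; 6.17 without inhibitor replicate 3). *Npnt*, nephronectin, which binds integrins in kidney development, fell 6.73-fold (adjusted p 2.53e-10).

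Enzymes that process and cut matrix changed as well. Of 23 collagen-processing genes 11 rose and 5 fell (69.6% called), with the cross-linkers *Loxl2* 5.38-fold and *Loxl1* 3.32-fold higher (adjusted p 5.56e-09 and 4.77e-10) and the prolyl hydroxylase *P3h2* 3.45-fold lower (adjusted p 5.43e-10). Of 28 proteases and inhibitors 14 rose and 4 fell. *Adam12*, a membrane protease, averaged 22.6 ± 4.89 CPM with TGFβ and the inhibitor and 0.445 ± 0.212 CPM with the inhibitor alone (5.61 ± 0.37, adjusted p 1.16e-09). *Mmp9*, a gelatinase, and *Adamts4*, an aggrecanase, rose 22.4-fold and 13.8-fold (adjusted p 6.72e-11 and 1.49e-10). Integrins changed both ways, with 4 of 13 higher and 5 lower (69.2% called), among them *Itga5*, the fibronectin receptor chain, 3.70-fold higher, and *Itga9* 23.2-fold and *Itga1* 5.32-fold lower (adjusted p 0.000734, 4.61e-13 and 1.05e-12).

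The contractile list rose almost throughout. Of 38 tested genes of actin filaments and their motors and anchors, 33 rose and 1 fell, with a median of 1.5. Beside *Acta2*, *Tagln*, transgelin, read 371, 230.1 and 342 CPM with TGFβ and the inhibitor, against 8.15, 5.56 and 4.59 CPM with the inhibitor alone, without overlap (5.68 ± 0.37, adjusted p 5.94e-07). *Acta1*, skeletal actin, averaged 193 ± 16.6 CPM against 1.41 ± 1.16 CPM (7.07 ± 0.27, adjusted p 1.19e-11; 8.01 without inhibitor replicate 1, 8.48 at thinned depth). *Cnn1*, calponin, read 19.0, 21.0 and 17.6 CPM against 1.21, 1.77 and 0.983 CPM (3.86 ± 0.31, adjusted p 1.57e-08). *Actg2*, enteric actin, had 59 counts against 0, at least 20.9-fold higher.

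Of 27 targets of the mechanical regulators YAP and SRF, 13 rose and 3 fell. The YAP-TEAD cofactor gene *Vgll3* rose 28.9-fold to 101 ± 9.66 CPM, against 3.45 ± 1.34 CPM with the inhibitor alone (adjusted p 1.44e-12). *Ankrd1*, a cardiac and YAP-responsive ankyrin protein, rose 6.96-fold and *Dlc1*, a brake on RhoA, 4.23-fold (adjusted p 1.44e-12 and 3.39e-09), while the immediate early gene *Egr1* fell 2.87-fold (adjusted p 2.04e-06). The CArG box, the word bound by SRF, was in the promoter window of 6 of the 30 higher contractile genes in the RefSeq table (20.0%), counting both strands. It was found in 1.58% of all tested genes in that table. The list was made of contractile genes, so this share may belong to the list, and its members not called higher were not counted. The promoter of *Acta1* (RefSeq, GRCm38.p6, chr8:123894726-123895025, minus strand) is printed because it held a match and was among the largest contractile rises; capitals mark the CArG box, which starts 73 bases before the gene's start.
Acta1: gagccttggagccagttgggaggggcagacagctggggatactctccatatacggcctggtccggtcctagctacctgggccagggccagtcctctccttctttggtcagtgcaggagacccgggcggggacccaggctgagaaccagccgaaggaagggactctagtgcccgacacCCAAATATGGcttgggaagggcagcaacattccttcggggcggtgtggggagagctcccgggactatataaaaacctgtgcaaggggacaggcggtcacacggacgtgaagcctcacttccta

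Interferon-induced genes rose, in cells from which the interferon gamma of expansion had been withdrawn. Of 73 tested, 56 were higher and 5 lower with TGFβ and the inhibitor than with the inhibitor alone, with a median of 1.38. *Isg15*, a ubiquitin-like protein, read 437, 500.2 and 560.2 CPM with TGFβ and the inhibitor, against 62.7, 50.7 and 40.2 CPM with the inhibitor alone, without overlap (3.28 ± 0.16, adjusted p 7.03e-11). *Ifi44* read 264, 279.7 and 279 CPM against 29.1, 14.6 and 15.8 CPM (3.79 ± 0.22, adjusted p 1.47e-08). *Usp18*, which removes ISG15 from proteins, rose 7.19-fold, and the RNA-sensing pathway genes *Oasl1* and *Zbp1* 8.24-fold and 7.76-fold (adjusted p 8.7e-10, 1.6e-08 and 3.33e-07). *Cxcl10*, a chemokine that draws T cells, rose 6.59-fold to 287 ± 12.7 CPM, against 43.5 ± 4.87 CPM (adjusted p 1.05e-12), and *Irf7*, a transcription factor of the response named here after its values were seen, rose 4.94-fold (adjusted p 1.29e-09).

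Many promoters of these genes held the interferon-stimulated response element, taken as 2 GAAA blocks with 2 bases between them. Of the 56 higher genes, 43 had a promoter in the RefSeq table, and 27 of them (62.8%) held the element on either strand, against 337 of the 9389 tested genes in the table (3.59%) and 3.44% of all promoters. The list was made of interferon-induced genes, so this share may belong to the list, and its members not called higher were not counted. A match is a description of the letters and not of a factor's binding. Printed are *Isg15*, a large and abundant rise (RefSeq, GRCm38.p6, chr4:156200769-156201068, minus strand), *Cxcl10* (chr5:92348840-92349139, minus strand) and *Ifit1* (chr19:34640639-34640938, plus strand), the last chosen after its values were seen. Capitals mark each match, 3 that overlap in *Isg15*, 1 in *Cxcl10* and 2 in *Ifit1*, where the element lies on the opposite strand.
Isg15: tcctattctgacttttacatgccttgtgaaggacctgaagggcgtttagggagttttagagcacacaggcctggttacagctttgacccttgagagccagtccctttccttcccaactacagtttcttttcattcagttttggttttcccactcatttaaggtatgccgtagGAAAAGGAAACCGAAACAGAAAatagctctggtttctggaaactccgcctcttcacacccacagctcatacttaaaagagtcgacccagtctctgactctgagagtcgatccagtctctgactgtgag
Cxcl10: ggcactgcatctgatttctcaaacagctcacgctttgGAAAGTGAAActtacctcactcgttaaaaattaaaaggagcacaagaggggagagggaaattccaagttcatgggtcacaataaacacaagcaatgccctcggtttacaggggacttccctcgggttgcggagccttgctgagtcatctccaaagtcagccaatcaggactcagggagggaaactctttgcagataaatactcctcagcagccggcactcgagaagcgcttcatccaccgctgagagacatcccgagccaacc
Ifit1: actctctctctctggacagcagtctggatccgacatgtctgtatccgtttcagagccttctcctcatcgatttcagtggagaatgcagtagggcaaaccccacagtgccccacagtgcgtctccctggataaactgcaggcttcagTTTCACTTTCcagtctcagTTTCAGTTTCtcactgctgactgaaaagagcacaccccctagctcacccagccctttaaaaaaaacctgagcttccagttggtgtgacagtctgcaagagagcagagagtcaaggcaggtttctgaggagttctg

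*Ifit1*, an RNA-binding antiviral protein, rose 6.71-fold to 295 ± 49.2 CPM, against 44.0 ± 6.31 CPM with the inhibitor alone (adjusted p 2.01e-11). The MHC class II pathway is a classical target of interferon gamma. Of 27 tested genes of MHC and antigen processing, 2 rose and 7 fell, 33.3% called, which is near the 36.3% of all tested genes. The class II genes among those that fell are given here. *H2-Eb1*, a class II chain, read 33.3, 32.8 and 40.0 CPM with TGFβ and the inhibitor, against 125, 111 and 120.0 CPM with the inhibitor alone, without overlap (-1.75 ± 0.12, adjusted p 1.89e-09). *H2-Aa* averaged 1.09 ± 0.404 CPM against 19.9 ± 0.520 CPM (-4.14 ± 0.35, adjusted p 2.55e-08). *Cd74*, the invariant chain, fell 6.76-fold and *Ciita*, the class II master regulator, 4.25-fold (adjusted p 6.41e-05 and 0.00106), with *H2-Ab1* 2.08-fold and *H2-DMa* 1.84-fold lower (adjusted p 1.18e-06 and 0.00919). The call of *H2-DMa* was lost without inhibitor replicate 2 (0.0549), without replicate 1 of TGFβ with the inhibitor (0.0586) or at thinned depth (0.109).

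Many genes of DNA replication and mitosis rose by small amounts. Of 53 replication genes 38 rose, 0 fell and 15 were not called, and of 57 mitosis genes 44 rose, 0 fell and 13 were not called, where 18% of all tested genes rose. The medians were 0.51 and 0.67. *Rrm2*, a subunit of ribonucleotide reductase, read 78.2, 60.0 and 65.1 CPM with TGFβ and the inhibitor, against 27.6, 32.4 and 22.4 CPM with the inhibitor alone, without overlap (1.3 ± 0.14, adjusted p 5.42e-07). *Cdc45* and *Cdc6*, which load and start the replicative helicase, rose 2.46-fold and 2.44-fold (adjusted p 8.31e-06 and 4.88e-05). *Birc5*, survivin, rose 2.18-fold to 116 ± 4.15 CPM, against 53.1 ± 5.16 CPM (adjusted p 4.74e-06), and *Cenpe*, a kinetochore motor, 1.92-fold (adjusted p 4.23e-07). *Top2a*, a topoisomerase of dividing cells named after its values were seen, read 252, 268 and 266 CPM against 143, 146 and 127 CPM, without overlap (0.92 ± 0.11, adjusted p 3.45e-06). The proliferation marker *Mki67* read 51.0, 72.5 and 56.3 CPM against 38.3, 42.0 and 35.7 CPM (0.63 ± 0.18, adjusted p 0.00952).

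Of 39 genes of cell cycle arrest, 8 rose and 7 fell, with a median of -0.014, and the 38.5% called are near the 36.3% of all tested genes. *Cdkn1a*, the p21 inhibitor, was not called, at 2168, 2303 and 2190 CPM with TGFβ and the inhibitor, against 2052, 2189 and 2085 CPM with the inhibitor alone (0.07 ± 0.10, adjusted p 0.6). *Cdkn2a* and *Cdkn2b*, inhibitors of the G1 kinases, rose 1.58-fold and 1.61-fold (adjusted p 0.000827 and 1.26e-05), and *Cdkn2c* fell 2.34-fold (adjusted p 2.91e-07). *Gadd45g*, a stress sensor, rose 4.95-fold (adjusted p 2.93e-11), and *Sesn1*, a p53 target, fell 3.06-fold (adjusted p 5.83e-07). *Lmnb1*, a nuclear lamin that falls in senescent cells, rose 1.70-fold (adjusted p 0.0022). Of 36 secreted factors of senescence, 15 rose and 6 fell (58.3% called), and *Mmp9*, which another list also holds, was among those that rose. *Il11*, a profibrotic cytokine, averaged 8.11 ± 0.963 CPM against 0.668 ± 0.467 CPM (3.56 ± 0.47, adjusted p 8.83e-06; 4.31 without inhibitor replicate 3).

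Transcripts of several lists of energy metabolism fell. Of 39 glycolysis and hypoxia genes, 31 were lower and 2 higher with TGFβ and the inhibitor, with a median of -1.04. *Bnip3*, a hypoxia-induced mitophagy protein, read 14.6, 13.7 and 18.9 CPM with TGFβ and the inhibitor, against 60.9, 65.4 and 66.7 CPM with the inhibitor alone, without overlap (-2.04 ± 0.14, adjusted p 2.36e-09). *Pdk1*, which shuts pyruvate out of the mitochondrion, fell 3.98-fold and the hypoxia-induced carbonic anhydrase *Car12* 5.32-fold (adjusted p 4.17e-09 and 1.48e-06). The abundant glycolytic enzyme *Aldoa* and the oxygen sensor's factor *Hif1a*, named after their values were seen, fell 3.57-fold and 2.37-fold (adjusted p 1.27e-09 and 1.56e-06). *Stc1*, a hypoxia-induced secreted glycoprotein, had 11 counts over 3 libraries against 1142, 0.463, 0.562 and 0.264 CPM against 43.5, 39.3 and 45.3 CPM (-6.56 ± 0.23, adjusted p 1.88e-13).

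Of 38 genes of fatty acid oxidation 25 fell, 0 rose and 13 were not called, a median of -0.49. *Ppargc1a*, the coactivator that drives mitochondrial genes, read 7.29, 13.3 and 11.6 CPM with TGFβ and the inhibitor, against 189, 195 and 218 CPM with the inhibitor alone, without overlap (-4.22 ± 0.19, adjusted p 4.81e-11). *Acaa2* and *Acadm*, enzymes of the beta-oxidation cycle, fell 3.80-fold and 2.58-fold (adjusted p 9.15e-09 and 1.25e-07). Of 74 nuclear genes of the respiratory chain 25 fell, 0 rose and 49 were not called, with a median of -0.27, where 18.3% of all tested genes fell. That number of falls was not stable. It was 11 without inhibitor replicate 3, where 2086 of 13947 tested genes fell, and 44 with only the 2 groups compared, where 2918 of 12807 did. In the main fit *Ndufb8* of complex I fell 2.19-fold and *Atp5a1* of ATP synthase 1.57-fold (adjusted p 1.63e-08 and 0.000854). Of 7 tested mitochondrially encoded genes 4 fell and 0 rose. *mt-Co1*, a subunit of complex IV, fell 1.60-fold (adjusted p 1.68e-05).

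Many genes of sterol synthesis rose and many of glutathione and NRF2 fell. Of 39 sterol genes 25 rose and 3 fell, with a median of 0.58. *Cyp51*, an enzyme of the pathway, rose 3.13-fold (adjusted p 2.22e-10), while the cholesterol exporter *Abca1* fell 52.8-fold to 0.159 ± 0.0639 CPM, against 9.18 ± 1.09 CPM with the inhibitor alone (adjusted p 1.45e-09; 183-fold at thinned depth). The lower mean of *Abca1* is below the level of 3 counts in a library, so the size of its fold rests on few reads. Of 46 glutathione and NRF2 genes 25 fell and 4 rose. *Gstm1*, a glutathione transferase, read 39.8, 63.9 and 48.5 CPM with TGFβ and the inhibitor, against 1224, 1216 and 1567 CPM with the inhibitor alone (-4.72 ± 0.16, adjusted p 4.34e-13), though the members of this transferase family resemble each other and reads may be split between them. *Gclc*, the rate-limiting enzyme of glutathione synthesis, fell 4.16-fold and the regulator *Nfe2l2*, named after its values were seen, 2.93-fold (adjusted p 1.29e-11 and 3.78e-09).

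The pathways next to the inhibited enzyme changed in places. Of 26 NAD genes 1, *Nnmt*, rose and 7 fell, where 18.3% of all tested genes fell. *Nampt*, which salvages nicotinamide, read 54.5, 51.9 and 73.6 CPM with TGFβ and the inhibitor, against 238, 202 and 220.3 CPM with the inhibitor alone, without overlap (-1.88 ± 0.15, adjusted p 9.48e-09). *Sirt3*, the mitochondrial NAD-dependent deacetylase, fell 2.24-fold (adjusted p 6.69e-05). Of 39 methionine and polyamine genes 12 rose and 7 fell (48.7% called), among them *Cth*, which makes cysteine from cystathionine, 2.96-fold higher and *Psph*, of serine synthesis, 2.10-fold higher (adjusted p 0.00197 and 0.00171). Of 55 histone and DNA methylation genes 12 rose and 11 fell, 41.8% of them, where 36.3% of all tested genes were called. Only members that fell are named here, while the list's median log2 change was -0.044 and its largest rise was 1.535. *Tet1*, a DNA demethylase, had 0 counts against 38, at least 11.9-fold lower, *Tet2* fell 2.16-fold and *Ezh1*, a histone H3 methyltransferase, 2.09-fold (adjusted p 2.18e-05 and 1.3e-06).

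Many transcripts of tubular identity fell. Of 17 kidney transcription factors 11 fell and 1 rose, a median of -0.86, and of 16 tested proximal tubule genes 9 fell and 3 rose. *Aqp1*, the water channel of the proximal tubule, read 7.52, 15.4 and 11.5 CPM with TGFβ and the inhibitor, against 959, 988 and 1039 CPM with the inhibitor alone, without overlap (-6.44 ± 0.26, adjusted p 5.55e-10). *Sox9*, a factor of tubular repair, read 37.7, 37.9 and 39.6 CPM against 172, 175 and 165 CPM (-2.15 ± 0.10, adjusted p 6.73e-12). *Gata3* and *Sall1*, factors of kidney development, fell 3.58-fold and 2.79-fold (adjusted p 9.65e-06 and 1.11e-06), *Cdh16* 3.64-fold and the neutral endopeptidase *Mme* 3.25-fold (adjusted p 3.48e-10 and 6.31e-10). *Lrp2*, megalin, was among the 3 proximal tubule genes that rose, by 1.38-fold (adjusted p 0.000444). Loop, distal and collecting duct genes were mostly at or near 0, and of 6 tested 4 fell and 0 rose.

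Of 25 junction genes 9 were higher and 6 lower (60.0% called, where 36.3% of all tested genes were). *Krt8*, a simple epithelial keratin, rose 7.13-fold to 195 ± 7.90 CPM, against 27.3 ± 2.43 CPM with the inhibitor alone (adjusted p 1.01e-08). *Cldn1*, a claudin of tight junctions, fell 3.68-fold and *Ppl*, periplakin, 16.4-fold (adjusted p 0.000365 and 4.61e-09). Of 23 injury genes 8 rose and 6 fell (60.9% called). *Havcr1*, the injury marker KIM-1, stayed low, at 2.66, 4.27 and 3.83 CPM against 0.771, 0 and 0.546 CPM (2.96 ± 0.51, adjusted p 0.000166; 3.605 without inhibitor replicate 1). *Cd44*, a hyaluronan receptor, was 4.63-fold and *Plin2*, a lipid droplet coat, 5.58-fold higher (adjusted p 1.05e-10 and 8.7e-10), while *C3*, complement component 3, fell 11.2-fold and *Cp*, ceruloplasmin, 7.33-fold (adjusted p 1.36e-11 and 2.33e-12).

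The 12 largest rises and 12 largest falls were taken from called genes at 10 CPM or more in the higher group with no overlap, a choice that favours genes near 0 in the other group. The hormone gene *Fgf21* had 380 counts over 3 libraries with TGFβ and the inhibitor, against 0 with the inhibitor alone, at least 135-fold higher. *Ctsw*, a cathepsin known from lymphocytes, had 1814 against 2, a ratio of 964 (exact 95% counting interval 267 to 7967). *Kif26b*, an unconventional kinesin of kidney development, had 841 against 3, a ratio of 298 (102 to 1448), and *C1qtnf3*, an adipokine, 443 against 2, a ratio of 236 (64.8 to 1950). The 2 counts of *Ctsw* lay in inhibitor replicate 3 and the 3 of *Kif26b* in inhibitor replicate 2, so without that library the other group is at 0 and the fitted log2 fold change moves to 12.26 for *Ctsw*, against 9.65, and to 11.17 for *Kif26b*, against 8.04. These intervals and floors cover counting error only.

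On the other side, *Flrt1*, a neuronal adhesion protein, had 0 counts with TGFβ and the inhibitor, against 269 with the inhibitor alone, at least 84.4-fold lower. *Ackr3*, a scavenging chemokine receptor, read 0.694, 1.35 and 0.528 CPM against 40.9, 40.3 and 38.2 CPM (-5.49 ± 0.22, adjusted p 1.15e-12; -7.07 at thinned depth). *Abi3bp*, a matrix protein, fell 27.8-fold and *Aspg*, an asparaginase, 33.2-fold (adjusted p 7.85e-11 and 2.08e-09). *Agt*, angiotensinogen, averaged 0.498 ± 0.385 CPM against 27.1 ± 2.12 CPM (-5.67 ± 0.34, adjusted p 2.22e-10; -6.38 without replicate 2 of TGFβ with the inhibitor). *Mgp*, an inhibitor of calcification, averaged 0.237 ± 0.303 CPM against 11.7 ± 1.24 CPM (-5.53 ± 0.45, adjusted p 1.63e-08; -7.27 and -4.92 without replicates 1 and 2 of TGFβ with the inhibitor).

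TGFβ against control called 2636 genes higher (19.4%) and 2325 lower (17.1%), and 3555 genes were called in the same direction in both responses, 72.1% of those called with the inhibitor and 71.7% of those called without it. Most called genes had the same sign in both, 4780 of the 4933 called with the inhibitor (96.9%). Over all tested genes the log2 fold changes had a Pearson r of 0.827 and a Spearman rho of 0.772, a description across genes, which share libraries and are not independent.

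**Figure D3:**
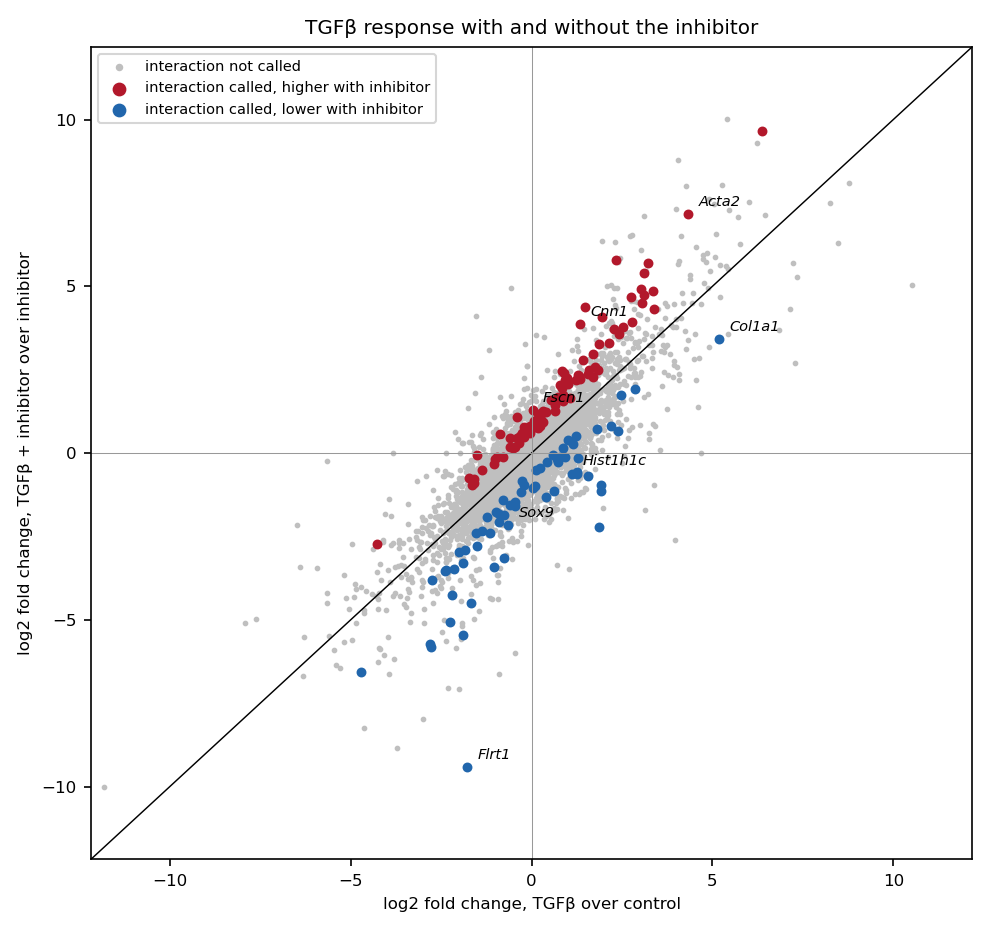
Each point is 1 of 13581 tested genes, with the log2 fold change of TGFβ with inhibitor over inhibitor on the vertical axis and of TGFβ over control on the horizontal axis; the diagonal marks equal responses. The 151 genes with a called interaction lie off the diagonal on both sides, and fitted values of genes with no count in a group depend on the prior count.

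The difference between the responses, tested as an interaction, was called for 151 genes (1.11%), 87 with a more positive response with the inhibitor (0.641%) and 64 with a more negative one (0.471%). Of these, 131 were also called with the inhibitor. Of the 3555 genes called in the same direction in both responses, 1873 had the larger absolute log2 fold change with the inhibitor. Of 38 contractile genes, 9 had a more positive and 0 a more negative response. The number of calls rested on single libraries, from 65 without control replicate 2 to 399 without TGFβ replicate 2, and tools ranged to 462 with limma-voom.

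The larger contractile responses started from lower levels. *Acta2* averaged 675 ± 65.9 CPM with TGFβ and the inhibitor and 4.70 ± 1.05 CPM with the inhibitor, and 873 CPM with TGFβ and 43.6 CPM in controls, so its response was 2.84 larger on the log2 scale with the inhibitor (adjusted p 3.78e-07). *Cnn1* averaged 19.2 and 1.32 CPM in the first pair, and 47.4 and 19.2 CPM in the second (interaction 2.51, adjusted p 0.00222). All 9 contractile genes with a called interaction had a lower mean with the inhibitor than in controls, and 4 of the 9 had a higher mean with TGFβ and the inhibitor than with TGFβ. Over all 38 tested contractile genes these held for 35 and 15, so a lower starting level was not particular to the 9. Of all 87 genes with a more positive response, 85 had a lower mean with the inhibitor than in controls, where 6646 of 13581 tested genes did. Since the interaction is built from the same 4 means, these counts describe where it lies and test nothing.

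*Ankrd1*, *Fmod*, a small matrix proteoglycan, and *Ccbe1*, a matrix protein of lymphatic growth, also had a more positive response with the inhibitor. *Ankrd1* averaged 3816 CPM with TGFβ and the inhibitor and 548 CPM with the inhibitor, against 2800 CPM with TGFβ and 1049 CPM in controls (interaction 1.38, adjusted p 0.000134). *Fscn1*, an actin bundler, rose with TGFβ in inhibitor-treated cells, to 659 CPM against 272 CPM, and stood at 678 CPM with TGFβ and 664 CPM in controls (interaction 1.25, adjusted p 0.000173). *Fmod* and *Ccbe1* had interactions of 1.52 and 1.63 (both adjusted p 0.000173).

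*Sox9* and *Gclc* fell further with the inhibitor. *Sox9* averaged 38.4 CPM with TGFβ and the inhibitor and 171 CPM with the inhibitor, against 81.5 CPM with TGFβ and 129 CPM in controls (interaction -1.51, adjusted p 1.24e-05). *Gclc* averaged 62.7 and 261 CPM in the first pair and 144 and 269 CPM in the second (interaction -1.16, adjusted p 0.000173). Of the 64 genes with a more negative response, 61 had a lower mean with TGFβ and the inhibitor than with TGFβ. With the inhibitor alone 40 had a higher and 24 a lower mean than in controls, where 6646 of 13581 tested genes had a lower one. No such share was taken for the 61. The interaction is built from the same means, so these counts test nothing.

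**Figure D4:**
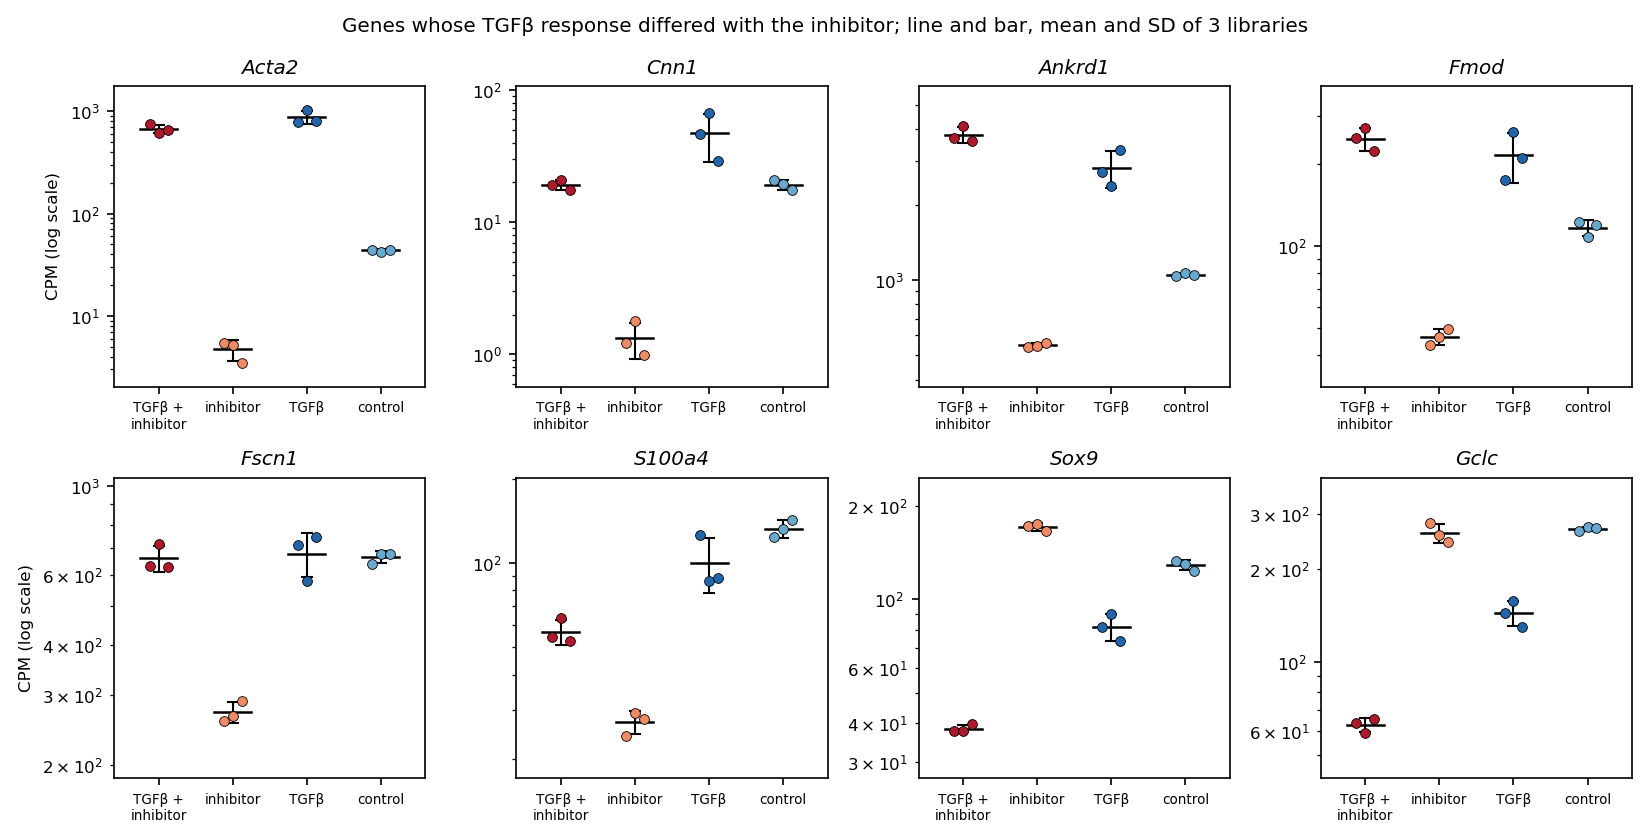
CPM on a log axis for 8 genes with a called interaction in each of the 12 libraries, with the mean and SD of 3 libraries per group. Acta2, Cnn1, Ankrd1, Fmod, Fscn1 and S100a4 were lowest in the inhibitor group, while Sox9 and Gclc were lowest with TGFβ and the inhibitor.

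A set of 10 genes was called in opposite directions in the responses with and without the inhibitor. *S100a4*, a calcium-binding protein used as a fibroblast marker, rose 2.11-fold in inhibitor-treated cells, to 57.0 ± 5.89 CPM against 27.1 ± 2.57 CPM (adjusted p 9.14e-06), and stood at 100.2 CPM with TGFβ and 133 CPM in controls (interaction 1.47, adjusted p 0.000609). *Slc38a2*, an amino acid transporter, and *Lrp2* had interactions of 0.77 and 0.85 (adjusted p 0.00311 and 0.00147), both higher with TGFβ in inhibitor-treated cells and lower with TGFβ otherwise. The linker histone gene *Hist1h1c* averaged 38.3 CPM with TGFβ and the inhibitor and 58.8 CPM with the inhibitor, against 147 CPM with TGFβ and 67.5 CPM in controls (interaction -1.74, adjusted p 1.67e-05). Histone genes are near-identical copies of each other and mostly lack poly(A) tails, so their counts are uncertain. Reads were counted without a stated strand setting, and 29 of 138 genes described overlap another annotated gene on their own strand, *Adam12*, *Kif26b*, *Lamb3*, *Ltbp1*, *Tgfbr3*, *Ppargc1a*, *Itga1*, *Nampt*, *Tet1*, *Aspg*, *Ccbe1*, *S100a4*, *Col1a2* and *Col4a1* among them, so their counts may include its reads or miss shared ones.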

How the data were processed

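Counts of reads per gene were deposited by the authors for 12 libraries in 1 table, made by 3′ sequencing of poly(A) RNA per the labels' protocols. Per the submitters' processing notes, STAR and HTSeq were used and the build named is GRCh38, a human one, although the gene IDs are mouse. Versions and strand setting are not given in the sources used here, so no positions were taken from the table, and promoters are RefSeq's (GRCm38.p6). Because reads lie at the 3′ end, counts do not scale with gene length.

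The members and lists were chosen with earlier results of these data known. Rows that name no gene were left out, genes were filtered by filterByExpr, and 1 quasi-likelihood model of the 4 groups was fitted with edgeR 4.0.16 (R 4.3.3, TMM scaling, robust), with Benjamini-Hochberg adjustment over all 13581 tested genes and a threshold of 0.05. Its contrasts were TGFβ with inhibitor against inhibitor, TGFβ against control, and their difference. CPM use the TMM-scaled library sizes. Genes named are a panel, the 12 largest rises and falls at 10 CPM or more without overlap, up to 6 called members of each list, and those with the smallest interaction p, with others named as chosen after their values were seen. Folds against a group without counts use a floor of 3 counts over the group. The pipeline was tested on simulated data. The alternatives, among them DESeq2 1.42.0 and limma 3.58.1, are given in the closing section. Same-numbered libraries of the groups compared did not deviate together. Some named genes are not reported here.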

Additional observations from a re-analysis of the deposited data

Results flagged for a closer look

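Of the genes described, 28 had a response to TGFβ that differed with the inhibitor by the interaction test of edgeR at an adjusted p below 0.05, given here as the response with the inhibitor minus that without it, on the log2 scale. Over 21 alternatives the call was lost in 15 for *Mmp9*, 12 for *Stc1*, 11 for *Tagln* and 10 each for *Ctsw* and *Pdgfb*. Among contractile and mechanical genes, the difference was 2.84 for *Acta2*, 2.51 for *Cnn1*, 2.46 for *Tagln*, 1.38 for *Ankrd1*, 1.25 for *Fscn1*, 1.51 for *Vgll3* and 1.09 for *Dlc1*. Among matrix genes and proteases it was 1.93 for *Postn*, 1.52 for *Fmod*, 1.63 for *Ccbe1*, 0.88 for *Loxl1*, 1.42 for *Mmp9* and 1.27 for *Adamts4*. *Col1a1* went the other way at -1.76, and its mean with TGFβ and the inhibitor, 38.4 CPM, was below its mean with TGFβ, 165 CPM.

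Among ligands and pathway genes the difference was 1.26 for *Pdgfb*, 1.40 for *Fstl1* and 0.94 for *Pmepa1*. It was 0.85 for *Lrp2*, 0.77 for *Slc38a2*, 1.47 for *S100a4* and 3.27 for *Ctsw*. More negative responses with the inhibitor were those of *Sox9* at -1.51, *Gclc* at -1.16, *Stc1* at -1.86, *Abca1* at -2.90, *Aspg* at -2.81 and *Hist1h1c* at -1.74. *Flrt1* had a fitted difference of -7.64, which depends on the prior count since 1 of its groups has no count.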

How the results depend on the processing

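The response with the inhibitor was called for 3787 to 6248 genes over its alternatives, against 4933, and none of the named genes called in it changed direction. Sign changes of named genes called in neither fit were not counted. The interaction count was the less stable, with 151 genes, 266 with the DESeq2 Wald test, 462 with limma-voom and quality weights, 306 without a filter on low counts and 350 with TGFβ replicates 2 and 3 both left out. Leaving out 1 library at a time gave 65 to 399. Of the 28 genes with a called interaction, 12 lost it in at least 1 of up to 21 alternatives, *Mmp9* in 15, *Stc1* in 12, *Tagln* in 11, *Ctsw* and *Pdgfb* in 10 each, *Adamts4* in 7, *Col1a1* in 6, *Abca1* in 5, *Dlc1* and *Pmepa1* in 2 each and *Aspg* and *Fstl1* in 1 each, and the cause was not tested. Numbers pair no libraries here, with correlations of same-numbered deviations of 0.131, -0.146 and -0.244, and a replicate block gave 4887 genes for the response with the inhibitor, 119 for the interaction and 4875 for TGFβ against control. The largest correlation, 0.383, joined replicate 2 of TGFβ with the inhibitor and inhibitor replicate 3. These had the highest mitochondrial shares of their groups, 5.31% and 7.39%, and the part of this in the results was not tested. Within the TGFβ group, replicate 2 stood apart, its counts giving 43.8 (chi-square over its degrees of freedom) against replicate 1 and 32.9 against replicate 3, where replicates 1 and 3 gave 6.36. Without TGFβ replicate 3, the shallowest library, the interaction count was 202.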

Other observations

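Over all tested genes 36.3% were called, 18% higher and 18.3% lower with TGFβ and the inhibitor than with the inhibitor alone. Of 47 lysosomal genes 18 fell and 6 rose (51.1% called), of 18 complement and renin-angiotensin genes 11 fell and 2 rose (72.2%), with a median log2 change of -1.34, and of 42 genes of protein-folding stress 15 rose and 6 fell (50.0%). Of 34 genes of NF-kB inflammation 12 rose and 5 fell (50.0%), and of 41 growth factor, WNT and Notch genes 16 rose and 9 fell (61.0%). Of 64 ribosomal protein genes 18 rose and 0 fell, with a median log2 change of 0.38. The 28.1% called were all higher, where 18% of all tested genes were, and near-identical copies make their counts uncertain. Of 8 tested genes of the aryl hydrocarbon receptor 3 rose and 1 fell (50.0%).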
